A study of Homo sapiens with 6 samples.

Results

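The genes described here build cholesterol and fatty acids in the cell, or switch that programme on and off. They are 39 genes chosen by symbol: 18 enzymes of cholesterol synthesis, 5 regulators of the SREBP pathway, 3 genes of sterol transport and 13 enzymes that make, modify or activate fatty acids. Each of the 39 matched a single gene among the 74852 listed by the authors, and all 39 passed the filter on low values (a normalized count averaging 10 or more across libraries). The expression data come from MDA-MB-231, a triple-negative breast cancer (TNBC) cell line with mesenchymal features. The cells received a pool of non-targeting control siRNAs (si-CTRL) or a siRNA pool (si-NEK2) that targets the mitotic kinase NEK2, and polyA-enriched RNA was sequenced from 3 libraries per group. Per the labels the cells grew in high-glucose DMEM with serum, were transfected in successive rounds and were harvested 24 h after the second one, while the study's methods name another medium and harvest time. All silenced libraries come from 1 pool of siRNAs, so loss of NEK2 and other effects of that pool cannot be told apart, and whether both groups were handled in the same batch is not stated.

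Cells make cholesterol from acetyl-CoA through the mevalonate pathway, which also supplies isoprenoids for the anchoring of proteins in membranes. The same acetyl-CoA is the starting point of fatty acids, which are then elongated, desaturated, coupled to coenzyme A and built into membrane and storage lipids. Both branches are under the SREBP transcription factors, encoded by SREBF1 and SREBF2. SCAP escorts the SREBP precursors out of the endoplasmic reticulum when sterols are low, and INSIG1 and INSIG2 hold them there when sterols are high. SREBPs bind sterol regulatory elements in promoters, commonly beside sites of the factor NF-Y, whose core is the CCAAT box. Rapidly dividing cancer cells depend on these pathways for new membrane.

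Promoter sequence, RefSeq on GRCh38.p14 from 250 bases before to 50 bases after the first listed start, was found for 35 members. ACAT2, FASN, FDFT1 and SQLE were not matched. On either strand, CCAAT was found in 20 of the 35 (57.1%), against 35.7% of 27305 promoters and 36.3% of the 11110 promoters of genes tested. Among members called higher after silencing it was in 10 of 16, among those called lower in 3 of 8, and among those not called in 7 of 11. The E-box CACGTG was in 6 of the 35 members (17.1%) in 7.43% of all promoters and in 9.94% of those of genes tested. A sterol regulatory core, TCACNCCAC, was in 1 member, SREBF2, in 1.15% of all promoters and in 1.02% of those of genes tested. Over any listed start, the E-box was in 17.1% of the members and 12.3% of genes tested, and CCAAT in 68.6% and 42.7%. A match describes the letters in this window only, and 10 members have further starts that are not shown. The lines below hold 29 bases each around a match, 5′ to 3′ along the gene, with the match in capitals. They show the CCAAT box nearest the start in 6 members that changed at least 1.5-fold, the E-box of ABCA1 and the sterol core of SREBF2. The strand on each line is that of the gene on the chromosome. A CCAAT box on the strand opposite to the gene reads ATTGG, which is the case for MVK and TM7SF2.
ACLY, chr17:41919029-41919057, minus strand, 23 bases upstream: gaacgcgtgtggCCAATcgcggggccgtt
ACSL3, chr2:222860949-222860977, plus strand, 75 bases upstream: accgctcgcgggCCAATgggtggcagcct
MSMO1, chr4:165327623-165327651, plus strand, 34 bases upstream: agctctcgcaggCCAATaacgacaggacg
MVK, chr12:109573736-109573764, plus strand, 46 bases upstream: tcgcgcgctctgATTGGctggcctgaagt
SCD, chr10:100347035-100347063, plus strand, 186 bases upstream: aattcccttcggCCAATgacgagccggag
TM7SF2, chr11:65111786-65111814, plus strand, 74 bases upstream: ccccgagcgccgATTGGctggtgtgctgg
ABCA1, chr9:104928285-104928313, minus strand, 147 bases upstream: ggccccggctcCACGTGctttctgctgag
SREBF2, chr22:41832962-41832990, plus strand, 133 bases upstream: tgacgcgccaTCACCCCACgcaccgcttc

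The libraries held between 52625492 and 87454509 reads in genes, and 1 read was worth 0.818 to 1.25 normalized counts. NEK2 itself stood at 3702, 3323 and 3290 normalized counts in si-CTRL and at 284, 362 and 388 in si-NEK2, which is 10.0% of the control mean (log2 fold change -3.32 ± 0.12 SE, limma adjusted p = 1.86e-06). The mesenchymal filament gene VIM stood at 134282 to 173162 normalized counts in every library, and of the 5 luminal or epithelial markers ESR1 (1.94 to 15.2), PGR (0 to 1.64), CDH1 (0 to 5.42) and EPCAM (1.64 to 12.7) were at or near 0, while GATA3 stood at 287 to 542. The leukocyte and endothelial markers PTPRC and PECAM1 reached at most 25.4 and 16.2, and the liver marker ALB was at or near 0. After silencing VIM stood at 88.2% of control, with every silenced library below every control, but did not pass the test (limma adjusted p = 0.101). The other 3 mesenchymal markers passed it. The transcription factor ZEB1 fell to 56.3% of control (limma adjusted p = 0.00034), the adhesion receptor CD44 fell to 58.2% (0.00332) and the cadherin CDH2 rose to 157% (0.000346). The part of this in the results below was not tested. Along the second principal component, with 16.2% of the variance, si-CTRL library 1 stood apart from the other control libraries. For some members that library lies outside the other 2 controls by more than they differ from each other, among them IDI1, FDPS, MSMO1, EBP and ELOVL5, and values without it are given where a result turns on it. The labels do not say that replicates were separate cultures, so p-values measure the spread between these libraries, which may be technical.

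After NEK2 silencing the programme split. The transcription factor SREBF1, the desaturase SCD, the acyl-CoA synthetase ACSL3 and enzymes placed along the cholesterol pathway (HMGCS1, MVK, IDI1, FDFT1, TM7SF2, MSMO1) rose. ACLY, the enzyme that supplies both branches with acetyl-CoA, fell to 51.6% of control, and PMVK, LSS, CYP51A1, ELOVL6 and the cholesterol exporter ABCA1 fell as well. The fatty acid synthase FASN, the squalene epoxidase SQLE, SREBF2 and SCAP did not pass the test, each with a 95% interval inside a 1.5-fold change in either direction.

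A gene was called when its Benjamini-Hochberg adjusted p in the limma fit over all 18717 genes tested was at most 0.05, on log2(normalized count + 1), a scale that understates changes of low genes. Of the 39 members, 25 were called (64.1%), against 43.1% of all genes tested. By direction, 17 members were called higher (43.6%, all genes 21.8%) and 8 lower (20.5%, all genes 21.3%). All members exceed a mean of 50 normalized counts, and at that minimum 4008 genes were called higher and 3566 lower of 14958. By the study's own thresholds, an unadjusted p of at most 0.05 and a fold of at least 1.5, 7 members were higher (17.9%, all genes 8.23%) and 3 lower (7.69%, all genes 14.3%). The median log2 fold change of the members was 0.14, beside 0.01 for all genes tested. Scaling the libraries to equal totals instead lowered the median of all genes to -0.11 and that of the members to 0.01, and left 11 members called higher and 9 lower, with 2580 and 5262 among all genes. In 26 members (66.7%, all genes 55.0%) the groups did not overlap, with si-NEK2 higher in 18 (all genes 28.2%) and lower in 8 (all genes 26.9%). RNA from bulk cultures cannot tell apart fewer cells of a type and less RNA per cell.

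**Figure D1:**
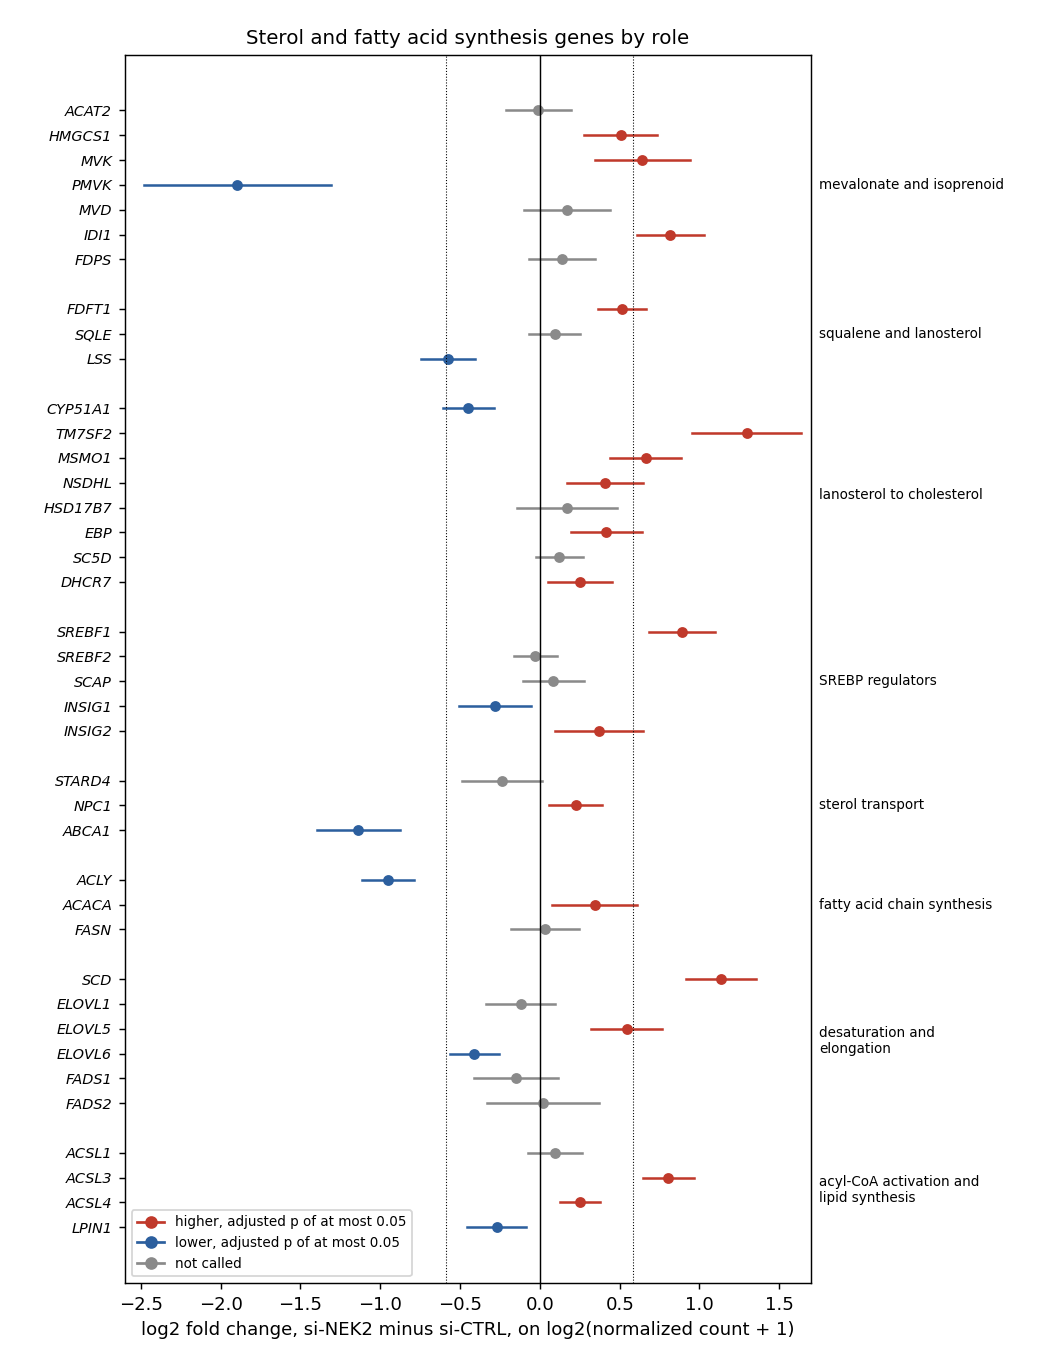
Log2 fold change of each of the 39 members, si-NEK2 over si-CTRL, on the horizontal axis, grouped by role, with the 95% confidence interval of the limma fit as a bar (n = 3 libraries per group). The dotted lines mark a 1.5-fold change, and the 14 members that were not called have intervals inside them.

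The first part of the cholesterol pathway turns acetyl-CoA into isoprenoid units. Of its 7 members 3 rose (42.9%, all genes 21.8%), 1 fell (14.3%, all genes 21.3%) and 3 were not called. HMGCS1 (GSHG0024764, hg19 chr5:43287572-43313614), which makes HMG-CoA, stood at 6904, 8901 and 8887 normalized counts in si-CTRL and at 11421, 12005 and 11401 in si-NEK2. Every silenced library lay above every control library, and si-CTRL library 1 was the lowest. The mean rose from 8231 ± 1149 to 11609 ± 343 (SD, n = 3 each), a log2 fold change of 0.51 ± 0.10 (SE, limma adjusted p = 0.00376).

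MVK (GSHG0006993, hg19 chr12:110011500-110035075), mevalonate kinase, stood at 545, 793 and 624 normalized counts in si-CTRL and at 1035, 988 and 1002 in si-NEK2. The silenced libraries lay close together and above all controls, at 154% of the control mean (log2 fold change 0.64 ± 0.13 SE, limma adjusted p = 0.00439). Without si-CTRL library 1 it was 0.52, still called but below 1.5-fold. The next enzyme, PMVK (GSHG0002572, hg19 chr1:154897208-154915126), phosphomevalonate kinase, went the other way. It stood at 312, 621 and 592 normalized counts in si-CTRL and at 153, 135 and 107 in si-NEK2. All silenced libraries were below the lowest control, si-CTRL library 1, and the mean fell to 25.9% of control, with a log2 fold change of -1.89 ± 0.26 SE (limma adjusted p = 0.00055). That was the lowest log2 fold change among the members, and its 95% interval ran from -2.48 to -1.31. Without si-CTRL library 1 it was -2.21.

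IDI1 (GSHG0003818, hg19 chr10:1085362-1102656), the isomerase that makes the activated isoprene unit, stood at 3557, 4413 and 4413 normalized counts in si-CTRL and at 7342, 7418 and 6941 in si-NEK2. The groups did not overlap, and the mean rose to 175% of control (log2 fold change 0.82 ± 0.09 SE, limma adjusted p = 0.000217), or 0.71 without si-CTRL library 1, the lowest. The other members of this step were not called. ACAT2, which condenses acetyl-CoA, had a log2 fold change of -0.01 (95% interval -0.21 to 0.19). MVD, the decarboxylase between PMVK and IDI1, had 0.17 (adjusted p = 0.287) and passed the test only without si-NEK2 library 3 (adjusted p = 0.0499). FDPS, which joins isoprene units to farnesyl diphosphate, had 0.14 (adjusted p = 0.258), and 0.04 without si-CTRL library 1. The span of ACAT2 overlaps the row of TCP1, with a mean of 42251 normalized counts, and that of FDPS overlaps SHC1, with 10162, so their counts carry the same doubt about shared reads as that of TM7SF2 below.

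**Figure D2:**
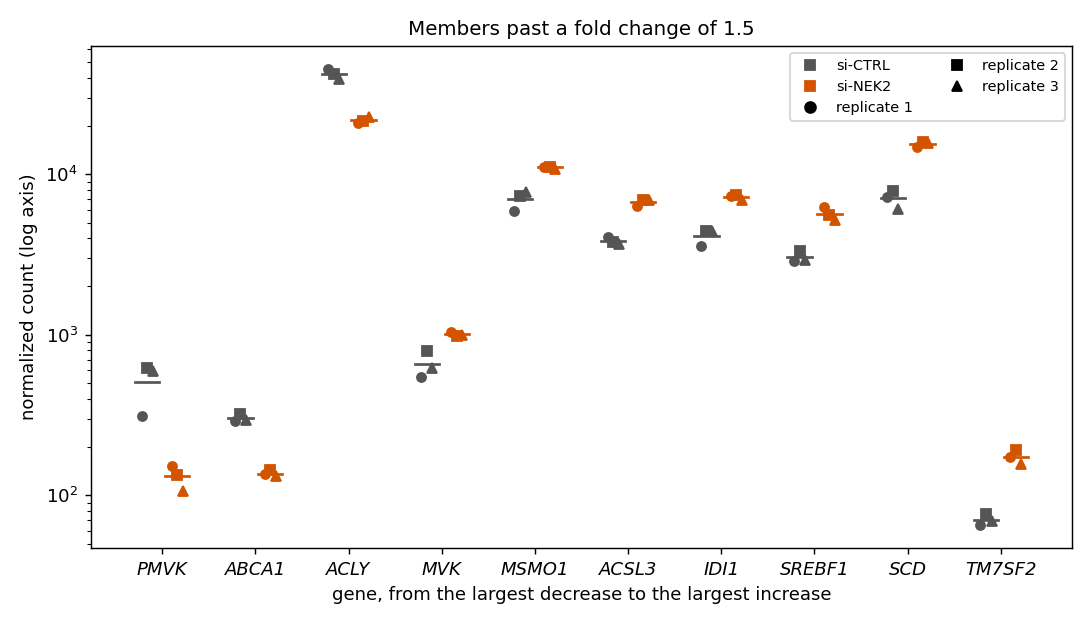
Normalized counts of the 10 members that were called and changed at least 1.5-fold, on a log axis, with 1 point per library and a bar at each group's mean (n = 3). In all 10 the si-CTRL and si-NEK2 libraries do not overlap, with PMVK, ABCA1 and ACLY lower and the other 7 higher after silencing.

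The next 3 enzymes commit farnesyl diphosphate to sterols, and each gave a different result. FDFT1, squalene synthase, rose from 3506 ± 191 to 5009 ± 52.5 normalized counts (143% of control, log2 fold change 0.52 ± 0.07 SE, limma adjusted p = 0.000397). SQLE, squalene epoxidase and a rate-limiting step of the pathway, stood at 6294, 5616 and 5642 normalized counts in si-CTRL and at 5948, 6445 and 6306 in si-NEK2. These groups overlapped because si-CTRL library 1 was as high as the silenced libraries, and the log2 fold change was 0.09 (95% interval -0.07 to 0.25, limma adjusted p = 0.329). Without that library it was 0.15 and passed the test (adjusted p = 0.0382). LSS, lanosterol synthase, which closes the sterol rings, fell from 2353 ± 128 to 1580 ± 63.6 normalized counts (67.1% of control, log2 fold change -0.57 ± 0.07 SE, limma adjusted p = 0.000426).

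Among the 8 enzymes from lanosterol to cholesterol, 5 rose (62.5%, all genes 21.8%), 1 fell (12.5%, all genes 21.3%) and 2 were not called. TM7SF2 (GSHG0133753, hg19 chr11:64879326-64883856), a sterol reductase, had the highest log2 fold change of all members. It stood at 65.0, 76.5 and 69.4 normalized counts in si-CTRL and at 174, 192 and 156 in si-NEK2, with no overlap. The mean rose to 248% of control (log2 fold change 1.29 ± 0.15 SE, limma adjusted p = 0.000242). TM7SF2 was also among the lowest members, and the span of its row overlaps that of VPS51, with a mean of 1867 normalized counts. Whether the counting used strand is not given in the sources used here, so reads of the overlap could have been counted for either gene.

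MSMO1 (GSHG0022966, hg19 chr4:166248818-166264312), the methylsterol monooxygenase, stood at 5927, 7354 and 7730 normalized counts in si-CTRL and at 11147, 11085 and 10803 in si-NEK2. Again the silenced libraries formed a narrow group above all controls, at 157% of the control mean (log2 fold change 0.66 ± 0.10 SE, limma adjusted p = 0.000804). Without si-CTRL library 1, the lowest, it was 0.55, still called but below 1.5-fold. NSDHL, which removes methyl groups as a sterol dehydrogenase, rose to 132% of control (log2 fold change 0.41, adjusted p = 0.0133), and EBP, the sterol isomerase, to 133% (0.41, adjusted p = 0.00871). DHCR7, the reductase of the last step, rose to 119% (0.25, adjusted p = 0.0454) although its groups overlapped. Its call was lost without si-CTRL library 2 or 3 or without any 1 silenced library (adjusted p up to 0.145). CYP51A1, the lanosterol demethylase, whose row also names LRRD1, fell to 73.2% of control (log2 fold change -0.45 ± 0.07 SE, limma adjusted p = 0.00109). SC5D, a sterol desaturase, was not called at 0.12 (adjusted p = 0.158), although its groups did not overlap. HSD17B7, a ketoreductase with a near-identical pseudogene copy that makes its count uncertain, was not called at 0.17 (adjusted p = 0.358).

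Over the 18 cholesterol enzymes together, 9 were called higher (50%, all genes 21.8%), 3 lower (16.7%, all genes 21.3%) and 6 not. Their median log2 fold change was 0.21. Their summed normalized counts were 56507 to 63700 in si-CTRL and 74372 to 76033 in si-NEK2, without overlap. Totals of normalized counts over all genes also did not overlap, with si-NEK2 higher. Of the lower members, PMVK directly follows MVK, which was higher. LSS and CYP51A1 lie between FDFT1 and MSMO1 in the pathway, both higher, with the uncalled SQLE just before LSS.

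**Figure D3:**
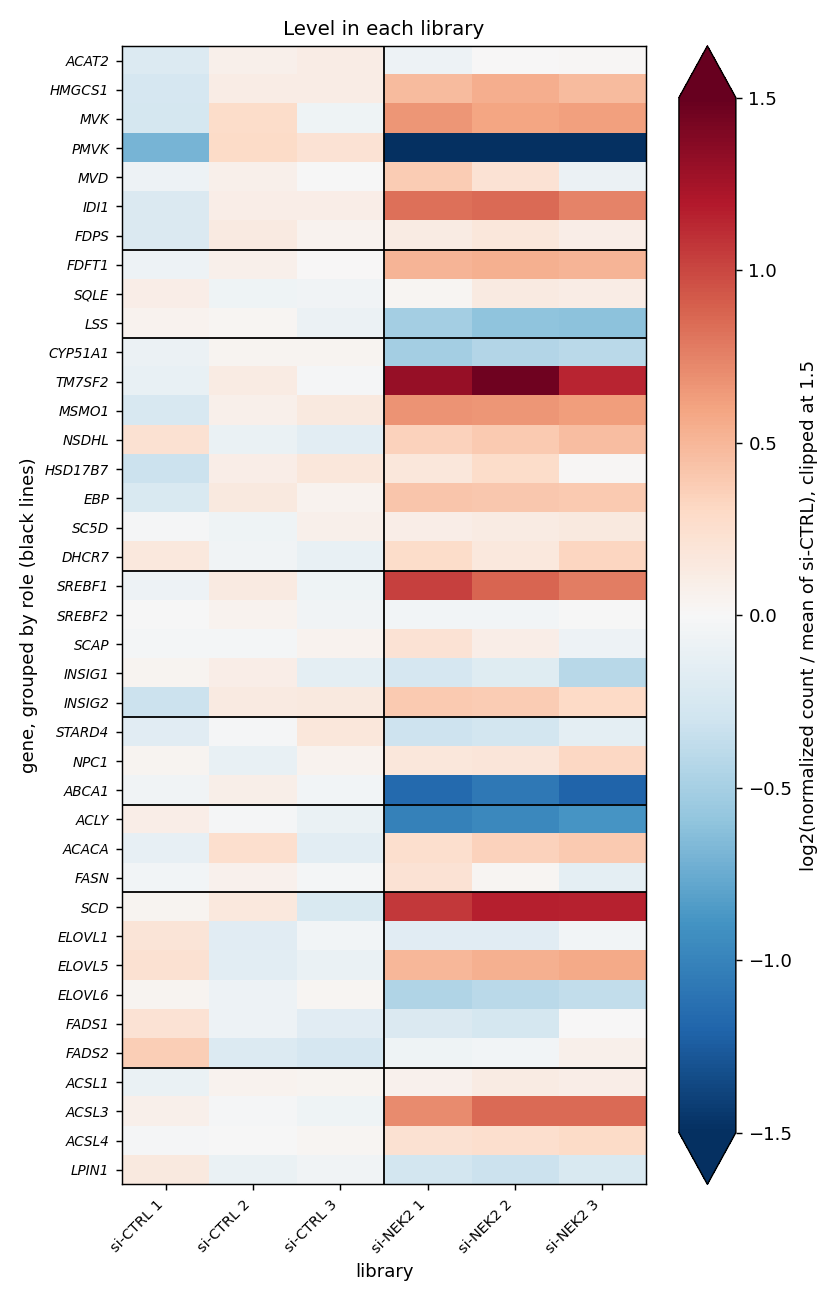
Each member (rows, grouped by role) in each library (columns), coloured by the log2 ratio of its normalized count to the si-CTRL mean, with the colour scale ending at 1.5 in either direction. Every role holds members called higher and members called lower, and the si-CTRL library 1 column departs from the other control columns for members such as PMVK.

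The regulators of the pathway also parted. SREBF1 (GSHG0013154, hg19 chr17:17714664-17740325) stood at 2893, 3343 and 2917 normalized counts in si-CTRL and at 6229, 5610 and 5174 in si-NEK2. The groups were far apart, and the mean rose to 186% of control (log2 fold change 0.89 ± 0.09 SE, limma adjusted p = 0.000125). This row also names the microRNA MIR6777, and its span overlaps the RAI1 row, with a mean of 981 normalized counts. SREBF2 (GSHG0020071, hg19 chr22:42229083-42303311), the paralog known mainly for sterol genes, stood at 8703, 9067 and 8441 normalized counts in si-CTRL and at 8500, 8467 and 8714 in si-NEK2. Its libraries overlapped, and its log2 fold change of -0.03 had a 95% interval of -0.16 to 0.11 (limma adjusted p = 0.727).

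SCAP (GSHG0021680, hg19 chr3:47455175-47517449), the escort of the precursors, stood at 3685, 3679 and 3903 normalized counts in si-CTRL and at 4373, 4024 and 3571 in si-NEK2. The silenced libraries spread on both sides of the controls, and the log2 fold change was 0.08 (95% interval -0.11 to 0.27, limma adjusted p = 0.464). INSIG1 (GSHG0027912, hg19 chr7:155089486-155101943), a retention protein and itself a classical SREBP target, stood at 1266, 1323 and 1115 normalized counts in si-CTRL and at 1033, 1090 and 925 in si-NEK2. All silenced libraries were below all controls, at 82.3% of the control mean (log2 fold change -0.28 ± 0.10 SE, limma adjusted p = 0.0454). INSIG2 (GSHG0016811, hg19 chr2:118845994-118868571), the other retention protein, stood at 2435, 3359 and 3370 normalized counts in si-CTRL and at 3999, 3964 and 3758 in si-NEK2. It moved opposite to INSIG1, to 128% of the control mean without overlap, and si-CTRL library 1 was by far its lowest library (log2 fold change 0.37 ± 0.12 SE, limma adjusted p = 0.0368). Both calls were near the threshold. That of INSIG1 was lost when any library other than si-CTRL library 3 was left out (adjusted p up to 0.156), and that of INSIG2 when any 1 silenced library was left out (up to 0.108).

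The balance within pairs of related genes was taken as the log2 ratio of their normalized counts inside each library, which cancels the scaling of the library. SREBF1 over SREBF2 moved from -1.52 ± 0.08 in si-CTRL to -0.60 ± 0.15 in si-NEK2 (SD, n = 3 each). INSIG1 over INSIG2 moved the other way, from -1.29 ± 0.33 to -1.95 ± 0.08. Neither pair overlapped between the groups. A 2-sided exact permutation test gave p = 0.1 for each, the smallest value that 3 against 3 libraries allow, and 0.12 after Benjamini-Hochberg adjustment over the 6 pairs examined.

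**Figure D4:**
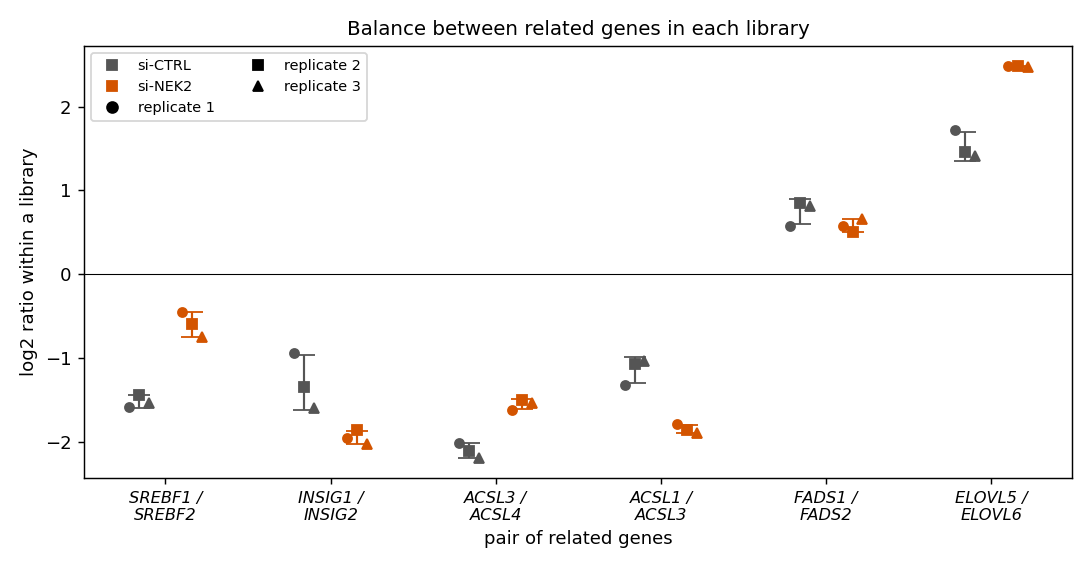
Log2 ratio of normalized counts within each library for 6 pairs of related members, 1 point per library, with bars for the group mean ± SD (n = 3 per group). In 5 pairs the si-CTRL and si-NEK2 points do not overlap, and for FADS1 over FADS2 they do.

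Of the transport genes, ABCA1 (GSHG0031041, hg19 chr9:107526839-107690527), which exports cholesterol to lipoproteins and is a classical target of the sterol-sensing LXR receptors, stood at 291, 322 and 293 normalized counts in si-CTRL and at 135, 144 and 131 in si-NEK2. Both groups were narrow and far apart, at 45.3% of the control mean after silencing (log2 fold change -1.14 ± 0.11 SE, limma adjusted p = 0.000118). The span of ABCA1 overlaps 2 other rows whose means sum to 49.2 normalized counts, the higher being NIPSNAP3B with 30.2. NPC1, which lets cholesterol out of lysosomes, rose to 117% of control (log2 fold change 0.22, adjusted p = 0.0362), a call lost on leaving out any library but si-CTRL library 1 (adjusted p up to 0.139). STARD4, a carrier of cholesterol between membranes, was not called at -0.24 (95% interval -0.49 to 0.01, adjusted p = 0.117). It passed the test without si-CTRL library 1 (adjusted p = 0.0218) and also with the libraries scaled to equal totals.

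Fatty acid synthesis proper needs ACLY, ACACA and FASN, in that order, and their results differed. ACLY (GSHG0013407, hg19 chr17:40023170-40075275), which splits citrate into the acetyl-CoA of both branches, stood at 45364, 41864 and 39403 normalized counts in si-CTRL and at 20956, 21581 and 22790 in si-NEK2. The lowest control library was well above the highest silenced one. The mean fell from 42210 ± 2996 to 21776 ± 932 (log2 fold change -0.95 ± 0.07 SE, limma adjusted p = 2.93e-05). ACACA, acetyl-CoA carboxylase, rose to 126% of control (log2 fold change 0.34, adjusted p = 0.0406), but only si-CTRL library 2 could be left out without loss of the call (adjusted p up to 0.129). FASN (GSHG0013842, hg19 chr17:80036213-80056110) stood at 4827, 5182 and 4871 normalized counts in si-CTRL and at 5742, 5059 and 4489 in si-NEK2. The silenced libraries lay on both sides of the controls, and the log2 fold change was 0.03 (95% interval -0.18 to 0.24, limma adjusted p = 0.802).

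ACLY was the highest member per length in si-CTRL, with 9728 normalized counts per kb of its longest annotated transcript, ahead of ELOVL1 with 4598 and FDPS with 3882. In si-NEK2 it stood at 5019 per kb, beside MSMO1 at 4853 and ELOVL5 at 4840, differences smaller than the spread of ACLY between libraries. At the other end in si-CTRL stood ABCA1 with 28.8 and TM7SF2 with 40.8 per kb. These levels assume that the longest annotated transcript is the one expressed.

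Desaturases and elongases shape the finished chains. SCD (GSHG0003617, hg19 chr10:102106772-102124591), the stearoyl-CoA desaturase that makes monounsaturated fatty acids, stood at 7257, 7913 and 6060 normalized counts in si-CTRL and at 14722, 15884 and 15704 in si-NEK2. No library came near the other group, and the mean rose to 218% of control (log2 fold change 1.13 ± 0.10 SE, limma adjusted p = 5.46e-05). ELOVL5, an elongase of polyunsaturated chains, rose to 145% of control (log2 fold change 0.55 ± 0.10 SE, limma adjusted p = 0.00225). Without si-CTRL library 1, the highest control, its log2 fold change was 0.66, which is past 1.5-fold. ELOVL6, which extends palmitate to stearate, fell to 75.2% (log2 fold change -0.41 ± 0.07 SE, limma adjusted p = 0.00139). The log2 ratio of ELOVL5 to ELOVL6 moved from 1.53 ± 0.17 to 2.48 ± 0.01 without overlap (exact permutation p = 0.1, the smallest possible).

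The other 3 of this role were not called. ELOVL1, an elongase of very long saturated chains, had a log2 fold change of -0.12 (adjusted p = 0.346). FADS1 and FADS2, the desaturases of polyunsaturated fatty acids, had -0.15 (adjusted p = 0.333) and 0.02 (adjusted p = 0.926). FADS2 was highest in si-CTRL library 1, with 2266 normalized counts against 1521 and 1466 in the other controls and 1671 to 1852 in si-NEK2. Without that library its log2 fold change was 0.22 and passed the test (adjusted p = 0.0209). The spans of FADS1 and FADS2 overlap a row that names CPSF7 and FTH1, with a mean of 183727 normalized counts.

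Fatty acids enter lipids as acyl-CoA, made by the ACSL synthetases. ACSL3 (GSHG0017238, hg19 chr2:223725732-223808118), the form on lipid droplets and the endoplasmic reticulum, stood at 4059, 3808 and 3677 normalized counts in si-CTRL and at 6315, 6924 and 6947 in si-NEK2. The groups were far apart, and the mean rose to 175% of control (log2 fold change 0.81 ± 0.07 SE, limma adjusted p = 6.17e-05). ACSL4, which prefers arachidonic acid, started from a higher level per length and rose to 119% of control (log2 fold change 0.25 ± 0.06 SE, limma adjusted p = 0.00645). ACSL1 was not called at 0.10 (adjusted p = 0.331). The log2 ratio of ACSL3 to ACSL4 moved from -2.11 ± 0.09 to -1.55 ± 0.06 without overlap (exact permutation p = 0.1, the smallest possible). LPIN1, a phosphatidate phosphatase of glycerolipid synthesis, fell to 82.7% of control (log2 fold change -0.27, adjusted p = 0.0263), a call lost without any 1 silenced library (adjusted p up to 0.108).

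Across the 13 fatty acid and lipid enzymes 5 were called higher (38.5%, all genes 21.8%), 3 lower (23.1%, all genes 21.3%) and 5 not. Their median log2 fold change was 0.03. Their summed normalized counts were 100492 to 112930 in si-CTRL and 100030 to 105315 in si-NEK2, which overlap. ACLY was then left out, with its fall known. Without it the sums were 61089 to 67566 and 79074 to 82526, which do not overlap. The totals over all genes do not overlap either. The mean of the sums without ACLY rose from 63581 to 80857, and the mean of SCD alone rose by 8360.

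Further genes of these pathways that are not members were described the same way. Of 21 tested genes of a mixed sterol list, 10 were called higher and 2 lower, with a median log2 fold change of 0.23. That list spans sterol and isoprenoid synthesis, esterification, transport, sterol-dependent degradation and regulation, along with some neighbouring lipid genes. SOAT2, which esterifies cholesterol, rose past 1.5-fold (0.76, adjusted p = 0.0238), on 19 to 61 reads per library. It stayed called in 10 of the 16 alternatives that tested it and in 3 of 6 with a library left out, the call being lost without si-CTRL library 3 or si-NEK2 library 1 or 3 (adjusted p up to 0.0921). Of 27 tested further genes of fatty acid and glycerolipid synthesis, 10 were called higher and 4 lower (median 0.10). Past 1.5-fold, DGAT1, a triglyceride synthase, rose from 1859 to 3187 normalized counts (0.78, adjusted p = 0.000104) and its unrelated counterpart DGAT2 fell from 328 to 168 (-0.96, adjusted p = 0.000326). The elongase ELOVL2 (0.60, adjusted p = 0.000346) and the phospholipid acyltransferase LPCAT3 (0.60, adjusted p = 0.00124) also rose past it. Of 19 tested genes of fatty acid oxidation, the opposite process, 5 were called higher and 3 lower (median 0.04), and ACAA1, a peroxisomal thiolase, fell past 1.5-fold (-0.67, adjusted p = 0.000431). These counts stand beside the 21.8% higher and 21.3% lower of all genes tested.

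All 10 members past 1.5-fold and 7 further called members (HMGCS1, FDFT1, LSS, CYP51A1, EBP, ELOVL5 and ELOVL6) stayed called under each of the 17 alternative settings tried. The 14 members not called had log2 fold changes of -0.24 to 0.17, and the 95% interval of each lay inside a 1.5-fold change. Under equal total scaling NSDHL (adjusted p = 0.0607), DHCR7 (0.295), INSIG2 (0.148), NPC1 (0.320), ACACA (0.182) and ACSL4 (0.107) lost their calls, and under upper quartile scaling INSIG1 (0.0767) and LPIN1 (0.0501) did. Of the members not called, ACAT2, SQLE, SC5D, SREBF2, SCAP, FASN, FADS2 and ACSL1 changed sign under at least 1 setting.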

How the data were processed

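The authors aligned reads of polyA-enriched RNA (the study's text names both a single-end and a paired-end format) to hg19 and counted them per gene of the FAST DB annotation. The submitters' processing notes name STAR 2.4.0, Picard, SAMtools, FastQC and DESeq2, and the counting tool and its strand setting are not given in the sources used here. The deposited table is a signal per gene and library, the reads divided by a DESeq2 size factor; 100% of the values were whole reads within 0.01 once that factor was undone. The columns of the authors' own comparison (fold changes and p-values) were not used. Rows were matched by symbol, which 51665 of 74852 rows lack.

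The 18717 genes whose normalized count averaged 10 or more were tested with limma 3.58.1 (R 4.3.3) on log2(value + 1) with a trended prior and Benjamini-Hochberg adjustment, 3 against 3 libraries. The fit was run on simulated data with 1 dispersion for all genes and few changed genes, unlike these data. That run does not show the error rates here. Replicates differed by more than sampling noise, so none was merged. Alternatives were the pseudocount, the filter, 3 scalings, no trend, a replicate block, each library left out, and edgeR 4.0.16 and DESeq2 1.42.0 on recovered reads, which called 3897 genes higher and 4107 lower, and 4028 higher and 4187 lower. Levels per kb used GENCODE v29 transcripts, and promoters RefSeq. Values in every library are given for members past 1.5-fold and for SREBF1, SREBF2, SCAP, INSIG1, INSIG2, HMGCS1, SQLE, ACLY, FASN and SCD. Of non-members, genes past 1.5-fold are named, apart from an item that is not reported here. The members and lists were chosen with earlier results of these data known.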

Additional observations from a re-analysis of the deposited data

How the results depend on the processing

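Equal total scaling moved the most values: members called higher went from 17 to 11, their median log2 fold change from 0.14 to 0.0104 (0.0789 with quantile normalization), role groups with a median above 0 from 6 to 3, and it turned SQLE to -0.0358, SC5D to -0.0055, SCAP to -0.0454, FASN to -0.10, FADS2 to -0.11 and ACSL1 to -0.0324. Quantile normalization turned SQLE to -0.0030 and FASN to -0.0506, upper quartile scaling turned ACAT2 to 0.0266 and SREBF2 to 0.0065, and FADS2 became -0.0140 in edgeR and -0.0165 in DESeq2. A fold of at least 2 left 2 members regulated higher instead of 7. With single libraries left out, ACAT2 ranged from -0.11 to 0.0498, FASN from -0.0570 to 0.12, FADS2 from -0.0923 to 0.22, members called higher from 13 to 18, and other sterol genes called from 7 (without si-NEK2 library 3) to 13. None of the 25 called members changed sign under the 17 alternatives, and 21 of 39 members kept direction and call in all. The cause of these shifts was not tested.

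Libraries with the same replicate number did not deviate together (correlations of -0.09, 0.05 and -0.15), and no control library correlated best with its own number. Correlations this weak cannot decide whether same-numbered libraries were prepared together, and the main fit did not pair them. With the replicate block 13 members were called higher and 8 lower (DHCR7, INSIG2, NPC1 and ACACA lost their calls), among 3425 genes called higher and 3458 lower, against 4082 and 3981 without it.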
